A study of Homo sapiens with 4 samples.

Results

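FHIT, WWOX, MACROD2, IMMP2L, LRP1B, CSMD1 and AUTS2 are among the longest protein-coding genes of the human genome, and most of them span regions known as common fragile sites. Their contacts were read bin by bin from a Micro-C table of SH-SY5Y, a human neuroblastoma line in long use. Micro-C cuts chromatin with micrococcal nuclease, joins neighbouring ends and counts the joined fragments as contacts. The 7 genes were taken by name, and a pair of 50 kb bins was included when at least 1 of its bins overlapped the body of one of them. This gave 237 of the 89239 listed pairs, namely 203 single bins, whose contacts have both ends inside the same bin, and 34 pairs of different bins.

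The table compares 2 libraries of control cells with 2 of cells that carry a TDP-43 knockdown. Both lines were made by lentiviral shRNA, with a control shRNA (shNC) or one against TDP-43 (shTDP-43), so the controls also carried a vector. Puromycin selected the transduced cells in both (2 µg/mL over 2 weeks) and was then held at 1 µg/mL. TDP-43 is an RNA- and DNA-binding protein, and the comparison asks how contacts differed after its stable loss. Whether the replicates were grown as separate cultures is not given in the labels, and the spread behind the p-values may therefore be technical. No value in a contact map measures TDP-43 itself, so the knockdown could not be checked here.

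A common fragile site is a chromosome region that shows gaps and breaks in metaphase when DNA replication is slowed. Such sites tend to lie in very long genes, where few replication origins fire and where replication and transcription can meet on the same template. Deletions inside these genes are frequent in tumours. The 7 products are otherwise unrelated: FHIT is a diadenosine triphosphate hydrolase and candidate tumour suppressor, WWOX a WW-domain oxidoreductase and candidate tumour suppressor, and MACROD2 a hydrolase that removes ADP-ribose from proteins. IMMP2L is a subunit of the mitochondrial inner membrane peptidase. LRP1B is a low-density lipoprotein receptor-related protein, CSMD1 a transmembrane protein with CUB and sushi domains, and AUTS2 a nuclear protein linked to neuronal gene activation and neurodevelopmental disorders.

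The gene starts are shown first, because FHIT and MACROD2 each have a listed start at the outer edge and another inside the gene. RefSeq promoter windows of GRCh38.p14 (250 bases before to 50 bases after a start, 5′ to 3′ on the strand of the gene) matched 5 of the 7 genes, with 7 windows in all. Capitals mark CG dinucleotides, the bases that DNA methylation acts on. Shown are the internal and outer windows of FHIT, which lie in a bin that passed and a bin that did not (the difference between these bins was not tested), and the outer window of AUTS2, whose start bin carried some of the most contacts of any bin of the 7 genes.
FHIT internal start, chr3:60080860-60081159, minus strand: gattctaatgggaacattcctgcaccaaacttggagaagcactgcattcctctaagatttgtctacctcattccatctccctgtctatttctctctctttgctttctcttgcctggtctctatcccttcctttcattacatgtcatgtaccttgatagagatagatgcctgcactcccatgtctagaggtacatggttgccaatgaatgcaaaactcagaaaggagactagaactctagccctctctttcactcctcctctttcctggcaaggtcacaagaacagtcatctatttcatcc
FHIT outer start, chr3:61251403-61251702, minus strand: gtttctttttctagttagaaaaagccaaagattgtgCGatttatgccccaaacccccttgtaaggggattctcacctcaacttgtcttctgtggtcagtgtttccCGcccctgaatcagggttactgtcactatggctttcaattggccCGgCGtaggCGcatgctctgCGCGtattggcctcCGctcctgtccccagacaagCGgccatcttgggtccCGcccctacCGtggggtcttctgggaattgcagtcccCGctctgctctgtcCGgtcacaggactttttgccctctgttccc
AUTS2 start, chr7:69598225-69598524, plus strand: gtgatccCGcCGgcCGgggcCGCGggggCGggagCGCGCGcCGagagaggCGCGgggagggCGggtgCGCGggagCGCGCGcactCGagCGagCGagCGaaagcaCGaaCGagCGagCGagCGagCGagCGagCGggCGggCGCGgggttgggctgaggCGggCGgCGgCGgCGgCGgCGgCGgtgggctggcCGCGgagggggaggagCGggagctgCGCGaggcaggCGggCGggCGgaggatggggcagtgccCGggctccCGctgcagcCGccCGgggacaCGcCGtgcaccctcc

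The internal FHIT window has 0 CG dinucleotides, and 96.0% of 35116 RefSeq promoter windows of the same length have more. The outer FHIT window has 13, near the median of 14 over all windows, and the AUTS2 window has 55, with 0.276% of windows having more. MACROD2 has the same contrast as FHIT between its starts, with 34 CG dinucleotides in the outer window and 1 in the internal window. The WWOX window has 38 and the IMMP2L window 31. The motif TGTGTG, searched with its reverse CACACA as a short form of the UG repeats that TDP-43 binds in RNA, is in 0 of the 7 windows and in 17.2% of all windows. A match of letters is a description only.

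FHIT (gene ID 2272, chromosome 3, 59747277 to 61251452, minus strand) is 1.504 Mb long, with 31 of its 32 bins listed. WWOX (gene ID 51741, chromosome 16, 78099654 to 79212667, plus strand) is 1.113 Mb long, and all of its 24 bins are listed. MACROD2 (gene ID 140733, chromosome 20, 13995516 to 16053197, plus strand) is 2.058 Mb long, with all 43 bins listed. IMMP2L (gene ID 83943, chromosome 7, 110662644 to 111562492, minus strand) has 17 of 19 bins listed, and CSMD1 (gene ID 64478, chromosome 8, 2935361 to 4994914) has 40 of 42. AUTS2 (gene ID 26053, chromosome 7, 69598475 to 70793506, plus strand) has all of its 25 bins listed. LRP1B (gene ID 53353, chromosome 2, 140231423 to 142131016) is the exception, with 23 of 39 bins (59.0%) listed. The table starts at a mean abundance of -0.01 (log2 CPM), and the 16 other LRP1B bins are not analysed here. Exon and intron positions were not used here.

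The listed pairs summed to 158400914 and 163147992 contacts in the control libraries and to 115168160 and 142424414 in the knockdown libraries, which is part of each library and not its full depth. The 7 genes took 0.119% and 0.112% of the contacts in control and 0.138% and 0.137% in knockdown. These are shares of raw counts, before any scaling of the libraries. Levels are given in CPM, contacts relative to the sum of all listed contacts of a library, with library sizes scaled by TMM, a single factor per library. Since every bin is 50 kb, levels per bin are already per length. They were not corrected for the DNA copy number, GC content or mappability of a bin.

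Contacts were thin along most of these genes. Over all listed single bins the median control level was 7.35 CPM, and 172 of the 203 bins of the 7 genes were under 10 CPM. In the 2 control libraries the median bin of WWOX stood at 10.6 and 10.3 CPM and that of AUTS2 at 9.51 and 9.37 CPM. The others lay far below, at 3.70 and 2.97 CPM for IMMP2L, 3.39 and 3.26 for CSMD1, 3.32 and 3.16 for MACROD2, 2.80 and 2.49 for FHIT and 2.22 and 2.02 for LRP1B. In this order IMMP2L, CSMD1 and MACROD2 overlapped between libraries, and the other neighbours did not. By the ratio of the fullest to the emptiest bin, WWOX had the most even profile (6.48 to 16.7 CPM) and AUTS2 the widest (3.58 to 38.7 CPM).

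Of the 237 pairs, 30 were higher in the knockdown, 5 were lower and 202 did not pass (edgeR's quasi-likelihood test, adjusted p under 0.05 over all 89239 pairs). Over all pairs 5.76% were higher and 10.5% lower. A single factor per library leaves sparse bins with higher fold changes than full ones: the median log2 fold change was 0.02 over all single bins and 0.11 over those under 10 CPM. With this trend removed by a loess offset per library, 16 pairs were higher and 5 lower, against 4.96% and 6.01% of all pairs. By the authors' deposited table, 17 were higher and 5 lower, against 5.03% and 5.97%. The 2 scalings shared 15 higher and all 5 lower pairs, and both values are given below wherever the trend matters.

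The genes did not move alike. AUTS2 had 12 higher and 1 lower of 41 pairs, FHIT 9 and 0 of 31, and MACROD2 4 and 2 of 44. WWOX had 3 and 0 of 41, CSMD1 2 and 1 of 40, LRP1B 0 and 1 of 23, and IMMP2L none of 17. Beside these stand the 5.76% higher and 10.5% lower over all pairs. With the trend removed, higher pairs were found in FHIT (6), AUTS2 (9, of which 1 was gained) and WWOX (1) only, while each of the 5 lower pairs kept its call. Within single bins, 25 were higher and 4 lower, against 7.4% and 14.3% of all single bins, and against 8.72% and 1.43% of those under 10 CPM. In 305 other genes of at least 0.5 Mb, 10.9% of 4505 bins were higher and 5.9% lower. With the trend removed, 13 single bins of the 7 genes were higher and 4 lower. The same shares were then 7.87% and 5.14% of all single bins, 4.31% and 1.97% of those under 10 CPM, and 8.55% and 2.82% of those in the other long genes.

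**Figure D1:**
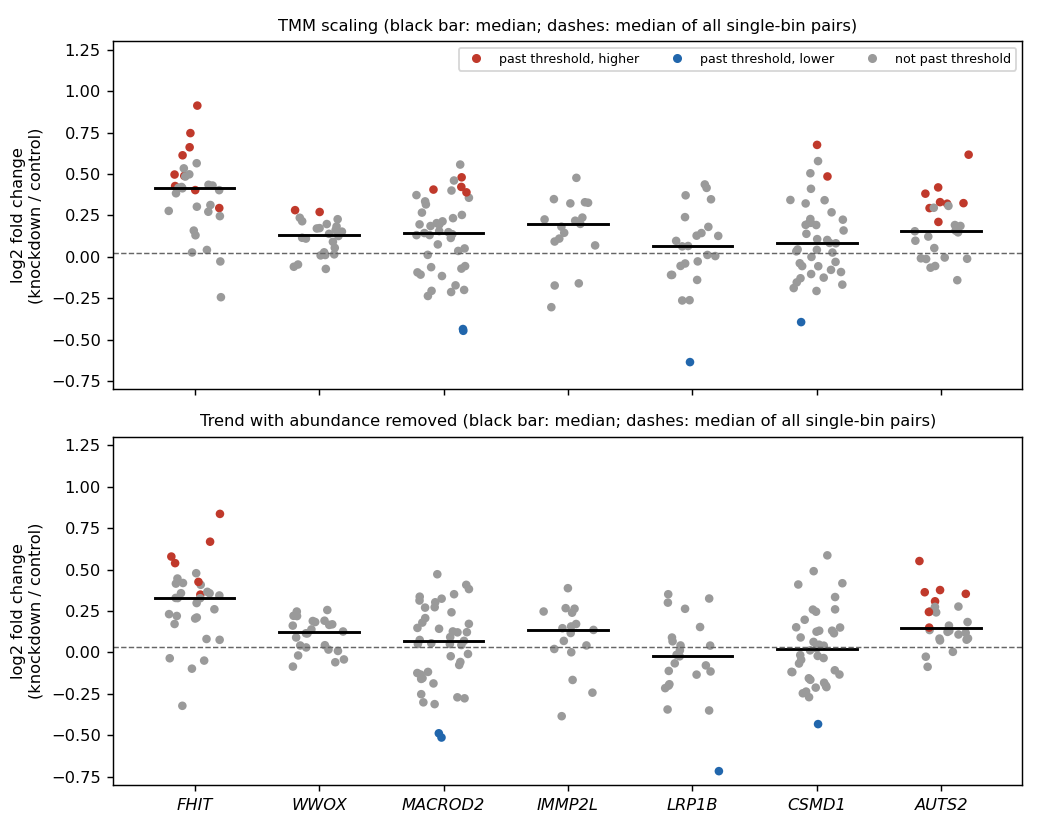
Log2 fold change (knockdown over control) of contacts within each 50 kb bin, by gene, with TMM scaling above and with the abundance trend removed below; each point is 1 bin, the black bar is the median of the gene and the dashed line the median of all listed single bins. FHIT sits highest in both panels, with a median of 0.41 and 0.33, while LRP1B and CSMD1 sit at the dashed line or close to it.

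FHIT was the gene with the broadest rise. The 31 bins had a median log2 fold change of 0.41 (0.33 after trend removal), and 29 of them (93.5%) were above 0. Of all single bins 54.1% were above 0, and of those under 10 CPM 68.9%. Both knockdown libraries exceeded both control libraries in 23 bins, stood below both in 0 and overlapped them in 8, where 31.4% of all single bins and 40.0% of those under 10 CPM have both knockdown libraries on top. The positive values formed an unbroken run of 23 bins from 59700001 to 60850000. With the trend removed this run was broken by the bin 776 kb from the start (-0.05). Among 301 genes of at least 0.5 Mb with 5 or more listed bins, FHIT ranked 3 by its median, behind SEMA6D and CACNA2D3, and 4 with the trend removed. The median of these 301 medians was 0.10.

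The 3 largest rises in FHIT lay in the bins nearer its 3′ end. Contacts within the bin at 59950001, 1276 kb from the gene start, were 1.97 and 1.97 CPM in the control libraries and 3.38 and 3.24 CPM in the knockdown libraries. The groups were well apart, and the log2 fold change was 0.75 (SE 0.19, edgeR adjusted p = 0.00149), or 0.67 with the trend removed (edgeR adjusted p = 0.00734). Contacts within the bin at 60050001, which holds the internal start without CG dinucleotides printed above, were 1.62 and 2.01 CPM in control and 2.46 and 3.26 CPM in knockdown. They rose by 0.66 on the log2 scale (SE 0.20, edgeR adjusted p = 0.0112, and 0.0386 with the trend removed). The neighbouring bin at 60100001 had the largest rise of any bin of the 7 genes, from 2.09 and 1.67 CPM to 3.35 and 3.71 CPM, on 257 to 551 contacts per library. Its log2 fold change was 0.91 (SE 0.19, edgeR adjusted p = 5.46e-05), and it passed in each fit that left out 1 library. The bin at 59950001 lost its call without knockdown library 1 (0.72, edgeR adjusted p = 0.0776), and the bin at 60050001 without knockdown library 2 (0.44, edgeR adjusted p = 0.399) and without control library 1 (0.50, edgeR adjusted p = 0.0806).

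At the outer start no call was made. The bin at 61250001, with the outer FHIT start, read 6.33 CPM in knockdown against 5.79 in control, a log2 fold change of 0.13 that did not pass (edgeR adjusted p = 0.510). The fullest bin, at 59750001 just inside the 3′ end, rose from 6.90 and 7.38 CPM to 8.86 and 8.65 CPM (log2 fold change 0.29, edgeR adjusted p = 0.0371), a call that was lost with the trend removed (edgeR adjusted p = 0.106). The emptiest, at 60400001, read 1.78 and 0.896 CPM in control and 2.11 and 1.77 CPM in knockdown. The groups overlapped, and it did not pass (log2 fold change 0.53, edgeR adjusted p = 0.101). The bin at 60750001, 476 kb from the start and chosen after its values were seen, rose from 2.62 and 2.53 CPM to 4.52 and 3.38 CPM (log2 fold change 0.61, edgeR adjusted p = 0.00457, and 0.0188 with the trend removed). The 15 bins at the 3′ end had a median of 0.43 with 7 higher calls, and the 15 at the 5′ end a median of 0.30 with 2. With the trend removed these medians were 0.37 and 0.22. The calls 1476, 1426 and 1326 kb from the start, all at the 3′ end, were then lost. The difference between the ends was not tested. Leaving out knockdown library 1 left 2 higher bins in FHIT and leaving out knockdown library 2 left 4, while the median stayed between 0.36 and 0.43 whichever library was left out.

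**Figure D2:**
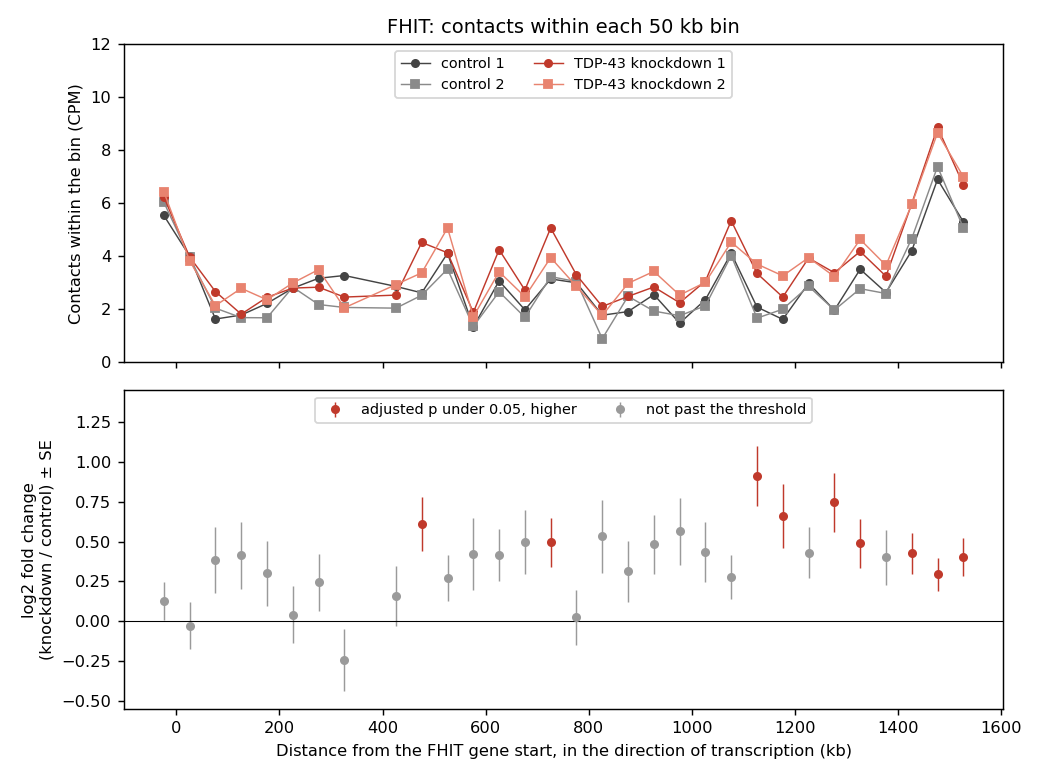
Contacts within each listed 50 kb bin of FHIT in the 4 libraries (top, CPM) and the log2 fold change with its standard error (bottom), against the distance of the bin's centre from the gene start in the direction of transcription (kb). Both knockdown lines run above both control lines in 23 of 31 bins, and the largest rises, up to 0.91, lie more than 1000 kb from the start.

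WWOX changed little within bins. The 24 bins had a median log2 fold change of 0.13 (0.12 after trend removal). Both knockdown libraries exceeded both control libraries in 14, beside 31.4% of all single bins. The bin at 78450001 rose from 6.80 and 7.38 CPM to 8.69 and 8.54 CPM (log2 fold change 0.28, edgeR adjusted p = 0.0499). The bin at 78800001 rose from 10.1 and 8.19 CPM to 10.5 and 11.5 CPM (log2 fold change 0.27, edgeR adjusted p = 0.0339). In neither bin did the groups overlap, and both calls were lost with the trend removed (edgeR adjusted p = 0.134 and 0.0739). The first was also lost without control library 1 (0.21) and the second without control library 2 (0.13), and both without either knockdown library.

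The WWOX contact that held under both scalings joined neighbouring bins. The pair from 78750001 to 78800001, 700 kb into the gene, rose from 1.10 and 1.25 CPM to 1.67 and 2.43 CPM, on 169 to 361 contacts. The log2 fold change was 0.81 (SE 0.23, edgeR adjusted p = 0.00613), or 0.71 with the trend removed (edgeR adjusted p = 0.0291). Knockdown library 2 carried more of the rise, and the call was lost without it (0.51, edgeR adjusted p = 0.343). The start bin at 78050001 had a log2 fold change of -0.05 (edgeR adjusted p = 0.756), the emptiest bin at 78850001 one of 0.09 and the fullest at 79000001 one of 0.14, and none of them passed.

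MACROD2 held calls in both directions, with 4 of its 43 bins higher and 2 lower. Of all single bins under 10 CPM, the class of 42 of its bins, 8.72% were higher and 1.43% lower. The MACROD2 decreases lay beside its start and the rises from its middle onward. The 2 bins next to its start bin were lower: the bin at 14000001 went from 1070 and 1149 contacts (7.23 ± 0.328 CPM, SD, n = 2) to 687 and 746 (5.35 ± 0.466 CPM), and the bin at 14050001 from 5.14 and 5.01 CPM to 3.53 and 3.91 CPM. The groups did not overlap in either, and the log2 fold changes were -0.44 (SE 0.12, edgeR adjusted p = 0.00380) and -0.45 (SE 0.14, edgeR adjusted p = 0.0165). With the trend removed they were -0.49 and -0.51 (edgeR adjusted p = 0.00247 and 0.00723). The first call was lost without knockdown library 2 (-0.35, edgeR adjusted p = 0.176), and the second without knockdown library 1 (-0.38, edgeR adjusted p = 0.274) or 2 (-0.53, edgeR adjusted p = 0.0761). The start bin itself, at 13950001 and shared with SEL1L2, read 10.4 CPM in knockdown against 11.2 in control with overlapping libraries (log2 fold change -0.11, edgeR adjusted p = 0.459).

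Further along MACROD2 the sign turned. Bins at 15050001, 15400001, 15500001 and 15650001 were higher, with log2 fold changes of 0.39, 0.48, 0.42 and 0.41 (edgeR adjusted p = 0.0330, 0.0206, 0.0432 and 0.0407). The bin at 15400001 went from 2.99 and 3.13 CPM to 4.45 and 4.09 CPM, with no overlap. All 4 calls were lost with the trend removed, where edgeR's adjusted p ran from 0.0675 to 0.121, and without either knockdown library, where it ran from 0.104 to 0.468. Control library 1 left out ended the call at 15050001, 15400001 and 15650001 (0.31, 0.43 and 0.29), and control library 2 that at 15500001 (0.38). The 21 bins at the 5′ end had a median of -0.06 (2 lower, 0 higher) and the 21 at the 3′ end a median of 0.20 (4 higher, 0 lower), or -0.12 and 0.13 with the trend removed. A run of 19 bins above 0 closed the gene, from 15150001 to 16100000. With the trend removed this run was broken, as bins 1179, 1329, 1379 and 1829 kb from the start stood below 0. The difference between the ends was not tested, and the internal start, with 1 CG dinucleotide, lay in a bin that did not pass (15150001, log2 fold change 0.05, edgeR adjusted p = 0.874).

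IMMP2L had no pair past the threshold with either scaling. Of its 17 bins 14 were above 0, beside 54.1% of all single bins and 68.9% of those under 10 CPM. The median log2 fold change was 0.20 (0.14 after trend removal). Both knockdown libraries exceeded both control libraries in 9 bins, beside 31.4% of all single bins and 40.0% of those under 10 CPM. The emptiest bin, at 110750001, read 1.46 and 1.64 CPM in control and 2.17 and 2.13 CPM in knockdown. Its groups did not overlap, but the log2 fold change of 0.48 did not pass (SE 0.22, edgeR adjusted p = 0.128). The fullest bin, at 111550001 over the start, read 12.3 and 11.9 CPM in control and 11.4 and 10.2 CPM in knockdown (log2 fold change -0.16, edgeR adjusted p = 0.217).

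LRP1B, the gene with the fewest contacts per bin, had a single call, and it was a decrease. Contacts within the bin at 140600001 fell from 2.96 and 2.97 CPM to 1.86 and 1.96 CPM, on 225 to 458 contacts. The log2 fold change was -0.64 (SE 0.19, edgeR adjusted p = 0.0121), or -0.72 with the trend removed (edgeR adjusted p = 0.00541). This was the largest decrease of the 237 pairs, and the call was lost without knockdown library 1 (-0.60, edgeR adjusted p = 0.176) or 2 (-0.67, edgeR adjusted p = 0.103). The other bins centred near 0, with a median over all 23 of 0.06 (-0.02 after trend removal) and overlapping groups in 11. Groups overlapped in 19652 of all 48992 single bins and in 13522 of the 28219 under 10 CPM. The emptiest bin, at 141850001, had a log2 fold change of 0.42 (edgeR adjusted p = 0.216) and the fullest, at 142100001, one of 0.00 (edgeR adjusted p = 0.991).

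CSMD1 also centred near 0, with a median log2 fold change of 0.08 over 40 bins (0.02 after trend removal). Groups overlapped in 21 of these bins, beside 19652 of all 48992 single bins and 13522 of the 28219 under 10 CPM. Its fullest bin, at 3100001, fell from 8.66 and 8.47 CPM to 6.32 and 6.71 CPM. The log2 fold change was -0.39 (SE 0.11, edgeR adjusted p = 0.00394), or -0.43 with the trend removed (edgeR adjusted p = 0.00363). The call was lost without knockdown library 1 (-0.35, edgeR adjusted p = 0.136). Its emptiest bin, at 4850001, went the other way, from 1.24 and 1.61 CPM to 2.36 and 2.19 CPM (log2 fold change 0.68, edgeR adjusted p = 0.0213), and the bin at 4200001 had a log2 fold change of 0.48 (edgeR adjusted p = 0.0425). Both of these calls were lost with the trend removed (edgeR adjusted p = 0.0697 and 0.109). They were also lost without either knockdown library (edgeR adjusted p from 0.0909 to 0.507), the first without control library 1 (0.48) and the second without control library 2 (0.39).

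AUTS2 had the most calls of the 7 genes, with 12 of 41 pairs higher, beside 9 of 31 in FHIT. The 25 bins had a median log2 fold change of 0.16 (0.15 after trend removal). The emptiest bin, at 69950001 and 377 kb from the start, rose from 3.96 and 3.20 CPM to 5.12 and 5.85 CPM, with no overlap. Its log2 fold change was 0.62 (SE 0.14, edgeR adjusted p = 0.000387), or 0.55 with the trend removed (edgeR adjusted p = 0.00327). The fullest bin, at 70650001, read 38.3 and 39.0 CPM in control and 38.1 and 39.0 CPM in knockdown, a log2 fold change of 0.00 (edgeR adjusted p = 0.970). Once the trend was taken out, that bin stood at 0.15 and passed (edgeR adjusted p = 0.0277), so its call depends on the scaling. The start bin, at 69550001, was nearly as full and did not pass (log2 fold change -0.01, edgeR adjusted p = 0.920). The 12 bins at the 5′ end had a median of 0.24 with 6 higher calls and a median control level of 8.53 CPM, and the 12 at the 3′ end a median of 0.07 with 2 higher calls at 20.3 CPM. With the trend removed these medians were 0.23 and 0.13. The 5′ calls 27 and 527 kb from the start were then lost, and the 3′ call at 70650001 was gained. The difference between the ends was not tested. Of the 2 higher bins at the 3′ end, the one at 70500001, chosen after its values were seen, rose from 15.5 and 14.3 CPM to 19.3 and 18.0 CPM (log2 fold change 0.33, edgeR adjusted p = 0.000335).

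Contacts between AUTS2 bins gave the largest called rises in the gene and its only called decrease. The pair from 69550001 to 69600001, which joins the start bin to the next, fell from 6.22 and 6.74 CPM to 5.66 and 4.37 CPM (log2 fold change -0.37, SE 0.13, edgeR adjusted p = 0.0248). With the trend removed it was -0.43 (edgeR adjusted p = 0.0139), and the call was lost with DESeq2 (adjusted p = 0.0814), without knockdown library 2 (-0.20, edgeR adjusted p = 0.552) and without control library 2 (-0.31, edgeR adjusted p = 0.109). The following pair, from 69600001 to 69650001, rose from 1.26 and 1.25 CPM to 2.39 and 1.57 CPM (log2 fold change 0.65, edgeR adjusted p = 0.0338). The pair from 69750001 to 69800001 rose by 0.64 on the log2 scale (edgeR adjusted p = 0.0372). The latter 2 rises were lost with the trend removed (edgeR adjusted p = 0.104 and 0.111) and in 3 of the 4 fits that left out 1 library: the first held only without knockdown library 2, the second only without control library 1. The pair from 70350001 to 70400001 rose from 1.58 and 1.47 CPM to 2.87 and 2.09 CPM (log2 fold change 0.70, SE 0.21, edgeR adjusted p = 0.0130), and passed with the trend removed as well (0.61, edgeR adjusted p = 0.0449), though not without knockdown library 1 (0.46, edgeR adjusted p = 0.439). Over the whole gene, 1 higher pair was left without knockdown library 1 and 5 without knockdown library 2. Between bins in general, 3.76% of 40247 pairs were higher and 5.84% lower, and 1.42% and 7.07% with the trend removed.

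Contacts within bins were then summed over each gene body, which trades position for depth. On the scale of the pairs, the FHIT sum was 92.0 and 86.8 CPM in control and 113.8 and 114.2 CPM in knockdown. These groups were far apart, the log2 fold change was 0.35 (SE 0.05, edgeR adjusted p = 1.2e-07 over 18697 genes), and it was 0.28 with the trend removed at the pairs (edgeR adjusted p = 9.16e-10). The AUTS2 sum was 367 ± 6.60 CPM in control and 390 ± 2.94 in knockdown (SD, n = 2), with a log2 fold change of 0.09 (edgeR adjusted p = 0.149). With the trend removed it was 0.15 and passed (edgeR adjusted p = 4.99e-07). The WWOX sum was 254 ± 10.3 against 274 ± 0.848 CPM (log2 fold change 0.11, edgeR adjusted p = 0.0751), and it too passed with the trend removed (0.10, edgeR adjusted p = 0.00123).

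The other sums did not pass under both scalings either. IMMP2L went from 64.8 ± 4.37 to 70.0 ± 0.616 CPM (log2 fold change 0.11, edgeR adjusted p = 0.0428), and lost its call with the trend removed (edgeR adjusted p = 0.315). MACROD2 read 155 ± 0.153 and 166 ± 1.26 CPM (log2 fold change 0.10, edgeR adjusted p = 0.109), CSMD1 145 ± 6.34 and 151 ± 4.45 CPM (0.06, edgeR adjusted p = 0.391), and LRP1B 52.9 ± 2.62 and 54.3 ± 0.667 CPM (0.04, edgeR adjusted p = 0.513). On this scale 5.48% of all gene sums were higher and 44.7% lower, and with the trend removed 12.1% and 14.9%.

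The scaling decides how many of these sums pass. With TMM computed over the gene sums themselves, all 7 passed as higher, from 0.17 for LRP1B to 0.48 for FHIT, where 22.6% of all gene sums were higher and 26.4% lower. The median over all genes was -0.11 on the scale of the pairs and 0.02 with TMM over the sums. With TMM over the sums the AUTS2 call was lost without knockdown library 1 (0.20) or 2 (0.22), that of CSMD1 without knockdown library 2 (0.16), and that of LRP1B without control library 2 (0.11) or knockdown library 1 (0.15). LRP1B and CSMD1 turned to -0.04 and -0.01 with the trend removed at the pairs, the form used for gene sums unless stated. With the trend removed over the gene sums themselves, these 2 were 0.17 and 0.37, and all 7 passed. The median over all genes was then 0.00. Of the 7, FHIT alone passed with TMM over the sums, on the scale of the pairs and with the trend removed at the pairs.

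**Figure D3:**
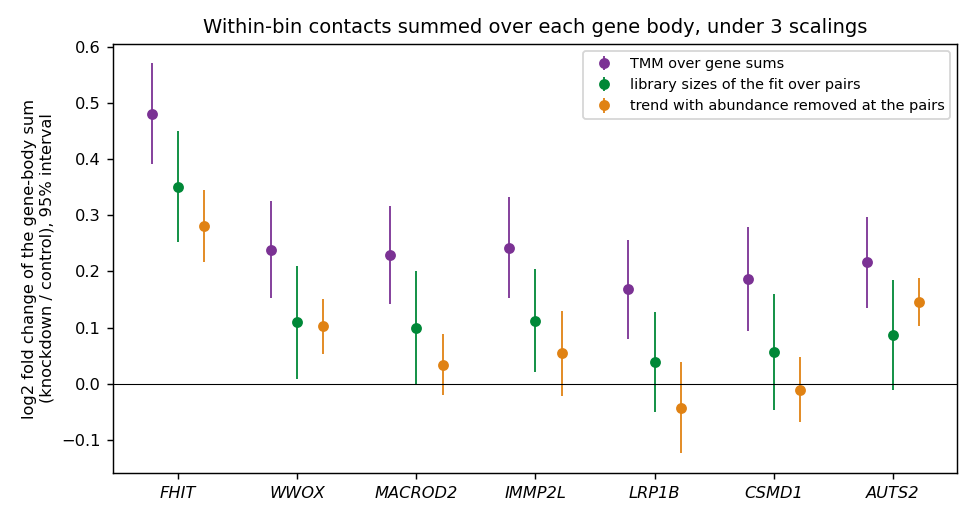
Log2 fold change (knockdown over control) of the contacts within bins summed over each gene body, with 95% intervals, under 3 scalings of the 4 libraries. FHIT lies at 0.48, 0.35 and 0.28 with intervals clear of 0. The LRP1B and CSMD1 intervals include 0 on the scale of the pairs and with the trend removed at the pairs. With that trend removed, both estimates are below 0.

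Contacts between bins could be summed for 3 of the genes. Those of AUTS2 (14 pairs) rose from 42.1 and 42.4 CPM to 49.2 and 49.4 CPM, a log2 fold change of 0.16 with TMM over these sums (SE 0.05, edgeR adjusted p = 0.0154) and 0.22 on the scale of the pairs (edgeR adjusted p = 0.00116). The AUTS2 call was lost without either knockdown library (edgeR adjusted p = 0.214 and 0.195). Those of WWOX (15 pairs) went from 28.9 and 27.0 CPM to 32.4 and 31.7 CPM, which passed on the scale of the pairs (0.20, edgeR adjusted p = 0.0194) and not with TMM over these sums (0.14, edgeR adjusted p = 0.113). MACROD2 had 1 such pair, which did not pass (-0.31, edgeR adjusted p = 0.402). With TMM over these sums, 4.09% of 7254 genes were higher and 12.5% lower, and on the scale of the pairs 8.37% and 8.49%.

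As a share of the contacts within bins of the same gene, those between bins stood at 11.3% and 11.7% in control and 12.5% and 12.7% in knockdown for AUTS2. For WWOX they stood at 11.1% and 10.9% in control and 11.8% and 11.5% in knockdown. The groups did not overlap in either gene. With 2 libraries per group an exact permutation test cannot go below p = 0.333, and no test of these shares was run.

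The rise at FHIT did not stop at the gene. Bins within 2 Mb on the side of its start had a median log2 fold change of 0.28, with 13 of 39 higher and 1 lower. On the far side the median was 0.09, with 8 of 38 higher. Of all single bins 7.4% were higher and 14.3% lower, and of those under 10 CPM 8.72% and 1.43%. With the trend removed the medians were 0.23 and 0.11, and 5 bins were higher on each side. The shares higher were then 7.87% of all single bins and 4.31% of those under 10 CPM. In windows of 5 Mb along chromosome 3, the median was 0.04 from 50 to 55 Mb, 0.22 from 55 to 60 Mb, 0.28 from 60 to 65 Mb, 0.18 from 65 to 70 Mb, 0.17 from 70 to 75 Mb and 0.02 from 75 to 80 Mb. The 2 windows that FHIT overlaps ranked 5 and 2 of 575 windows of the genome, and 6 and 1 with the trend removed. CACNA2D3 and ERC2, which ranked 2 and 4 by the median among the 301 long genes, start at 54.1 and 55.5 Mb of the same chromosome. Whether DNA copy number differs between the control and knockdown cells here was not tested.

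AUTS2 lay beside a region with more calls than the gene itself. Over the 2 Mb before its start, 25 of 39 bins were higher, and 30 of 39 with the trend removed, with medians of 0.25 and 0.29. Over the 2 Mb behind its end, 8 of 40 were higher with a median of 0.14. Of all single bins 7.4% were higher, and 7.87% with the trend removed. The 65 to 70 Mb window of chromosome 7, which ends inside the gene, ranked 33 of 575 and 4 with the trend removed. The 70 to 75 Mb window, which holds most of the gene, had a median of 0.01 and ranked 366, and 160 with the trend removed. The flanks of MACROD2 had medians of 0.07 and 0.03, and those of WWOX 0.01 and 0.11. For FHIT and AUTS2 the values inside and outside the gene overlapped widely, and the difference between body and flanks was not tested.

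**Figure D4:**
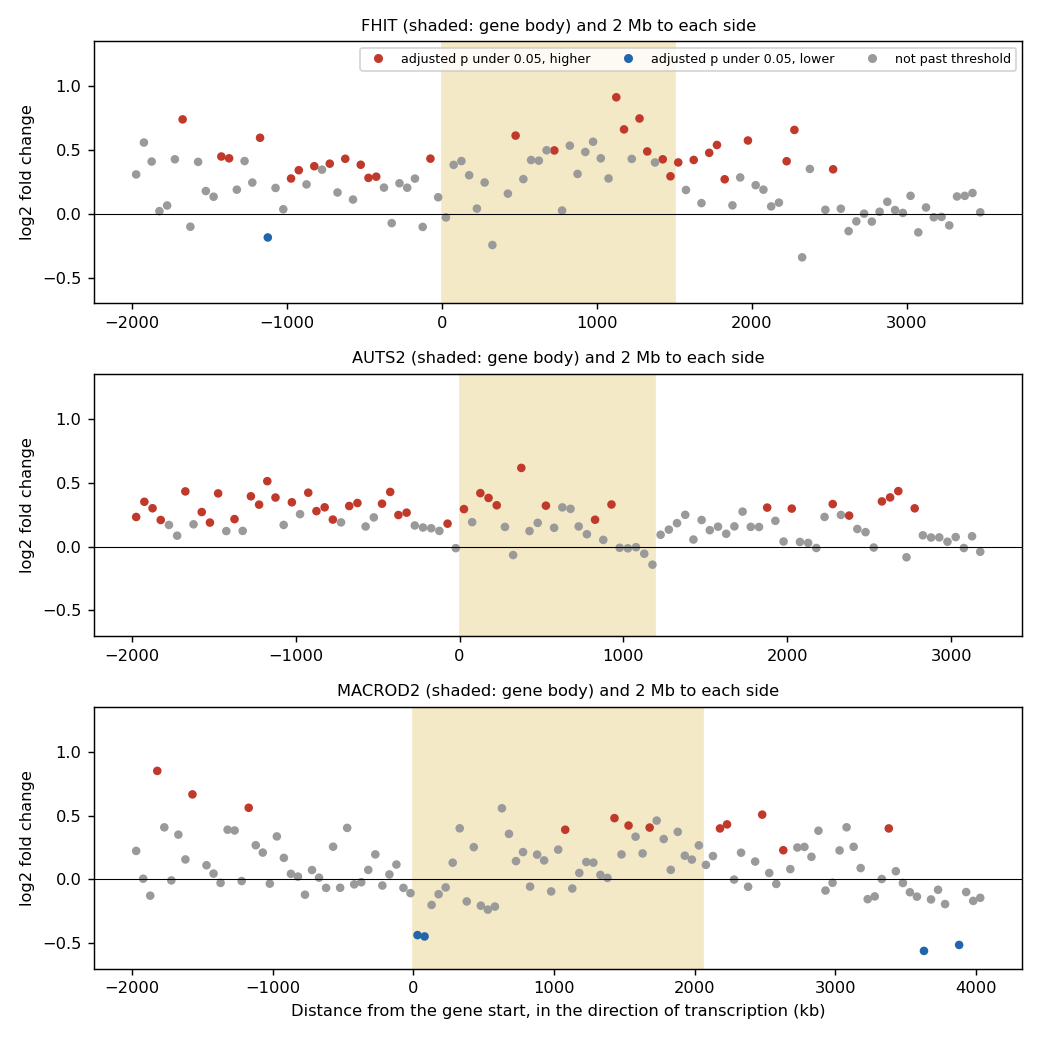
Log2 fold change (knockdown over control, TMM scaling) of contacts within each 50 kb bin of FHIT, AUTS2 and MACROD2 and of 2 Mb to each side, against distance from the gene start in the direction of transcription (kb); shading marks the gene body. Higher bins continue past both ends of FHIT. In the 2 Mb before AUTS2 25 of 39 passed as higher, beside 7.4% of all single bins. The lower bins of MACROD2 sit just behind its start.

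A list of 16 other long genes reported at fragile sites, chosen with earlier results of these data known, depended on the scaling as well. With TMM over the sums 14 were higher and 0 lower, on the scale of the pairs 5 and 0, and with the trend removed 5 and 1. The shares of all gene sums higher and lower were 22.6% and 26.4%, 5.48% and 44.7%, and 12.1% and 14.9%. The medians were 0.23, 0.10 and 0.03, beside 0.02, -0.11 and -0.01 over all genes. RORA, a nuclear receptor of the retinoid-related orphan family, had a log2 fold change of 0.40 with TMM over the sums and 0.27 on the scale of the pairs (edgeR adjusted p = 2.3e-05). DAB1, a reelin signalling adaptor, had 0.39 and 0.26 (edgeR adjusted p = 3.04e-05), and DPYD, which breaks down pyrimidines, 0.37 and 0.24 (edgeR adjusted p = 0.000786). All 3 passed with the trend removed. PTPRG, also higher under the 3 scalings, lies at 61561571 to 62297609 of chromosome 3, inside the 2 Mb flank of FHIT described above. Its bins are therefore not separate from that flank.

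The gene bodies of 22 genes of the replication stress response, all much shorter, gave no common direction. With TMM over the sums 5 were higher and 6 lower, on the scale of the pairs 0 and 10, and with the trend removed 4 and 1. Over all gene sums 22.6% and 26.4%, 5.48% and 44.7%, and 12.1% and 14.9% were higher and lower on these scales. MUS81, a nuclease that cuts stalled forks at fragile sites, had a log2 fold change of -0.28 with TMM over the sums (edgeR adjusted p = 1.99e-05) and 0.00 with the trend removed (edgeR adjusted p = 0.953). FANCA, of the Fanconi anaemia core complex, had -0.25 and -0.07 (edgeR adjusted p = 0.0371, the 1 lower call left), and ATRIP, the partner of the ATR kinase, -0.19 and -0.02. WRN, a RecQ helicase, had 0.19 and 0.03, and TIPIN, of the fork protection complex, 0.16 and 0.08. Contacts within these genes say nothing of the level of their products.

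Among 305 other genes of at least 0.5 Mb, the profile of the gene sum over the 4 libraries (log2 CPM minus its mean) closest to that of FHIT was CACNA2D3, at a Euclidean distance of 0.0425. The closest to MACROD2 was PHACTR1 (0.00995), to IMMP2L PRELID2 (0.0323), to LRP1B IQCJ-SCHIP1 (0.0135), to CSMD1 NRG3 (0.0267) and to AUTS2 PTPRM (0.00977). None of these shared a bin with its gene, and 4 libraries in 2 groups give few distinct profiles.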

How the data were processed

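Contacts were measured by Micro-C. Per the submitters' processing notes, HiC-Pro and hg38 were used, with versions not given in the sources used here. The authors deposited raw contact counts for 89239 pairs of 50 kb bins. Per the file headers the table also gives the authors' log2 fold change and log2 mean abundance, an F score, and a p-value in raw and adjusted form. What "merged" in the library titles covers is not stated.

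Counts of all pairs were fitted with edgeR 4.0.16 (glmQLFit, glmQLFTest, TMM, filterByExpr, which removed 0 pairs; limma 3.58.1, R 4.3.3), with Benjamini-Hochberg adjustment over all pairs and a threshold of 0.05. Fold changes are knockdown over control. TMM factors were 0.966 and 0.944 (control) and 1.05 and 1.04 (knockdown), and the common dispersion gave a coefficient of variation of 9.01%. Control libraries differed by a chi-square of 8.86 per degree of freedom and knockdown libraries by 4.80, so all 4 were kept as separate libraries. The smallest total count of a pair was 868, and counts cover part of each library. Gene bodies came from RefSeq GRCh38.p14, with counts summed per gene and fitted over 18697 protein-coding genes. Neighbouring genes can share bins. The fit was also run on simulated counts without an abundance trend, which cannot show which scaling is right for these data. The loess offset gave fold changes within 0.00237 (log2) of those in the authors' deposited table.

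The 7 genes and both lists were chosen with earlier results of these data known. Named are, per gene, all called pairs if at most 6, otherwise the 3 largest rises and falls, with the emptiest, the fullest and the start bin. Per list, up to 3 genes a direction are named, and per gene the nearest long gene by profile; some items that this rule named are not reported here. SEMA6D, ERC2, the flanks, the 5 Mb windows, the 10 CPM class, the gene ends and 2 scalings of the sums were added after seeing the data. Alternatives were DESeq2 1.42.0, no filter, other thresholds, a replicate block, distance classes, bins wholly inside a gene and each library left out. Figures were drawn with Python 3.11.15, numpy 2.4.6, pandas 2.3.3 and matplotlib 3.10.9.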

Additional observations from a re-analysis of the deposited data

How the results depend on the processing

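The 30 higher pairs became 16 with the trend removed, 16 with DESeq2, 17 in the authors' deposited table, 9 at an adjusted p of 0.01 and 51 at 0.1. They became 36 with TMM computed by distance class, 34 with the replicate block and 4 to 34 with 1 library left out, of which 4 without knockdown library 1 and 10 without knockdown library 2. The 5 lower pairs became 2 at 0.01 and 1 to 6 with 1 library left out, 2 without knockdown library 1 and 1 without knockdown library 2. The replicate block gave 5 lower pairs and changed no call among the 20 named pairs or the sums. The deviations of same-numbered libraries had a correlation of r = 0.0192. Whether these libraries shared a culture or a batch is not stated. Of the 7 gene sums, 2 passed on the scale of the pairs, 3 with the trend removed at the pairs, 2 over bins wholly inside a gene and 5 to 7 with 1 library left out. The fits over bins wholly inside a gene recomputed TMM over the genes with such bins, so bins and scaling changed together. The LRP1B gene-body sum (-0.043) and the CSMD1 gene-body sum (-0.011) turned negative with the trend removed at the pairs. With the trend removed over the gene sums themselves, they were 0.17 and 0.37, and all 7 sums passed. The sums between bins that follow used this second form of trend removal. The 1 sum between bins that passed became 2 with the trend removed or on the scale of the pairs, 0 over bins wholly inside or at 0.01, and 0 to 2 with 1 library left out. Without knockdown library 1, 15 of the 20 named calls were lost, and as many without knockdown library 2, against 7 and 6 for the control libraries. Such fits assume that the lone library varies like the other group. The causes of these losses were not tested. None of the 20 called named pairs changed direction under the alternatives run. DESeq2 gave 4 lower pairs, and the AUTS2 pair from 69550001 to 69600001 was lost there. Depth limits the emptiest bins most, where 138 contacts was the fewest in a library.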
